A study of Mus musculus with 62 samples.

Results

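Gastrocnemius muscle of mice carrying cachectic melanoma cells (CAC) was compared with that of mice carrying non-cachectic melanoma cells (NCAC) at 6 weeks after the cells were injected. The comparison took 5 CAC and 5 NCAC libraries, the 10 members chosen by their group and week, out of 62 libraries in the whole series. The series also holds mock-injected mice (Con) and weeks 2, 4 and 8, and it follows skeletal muscle while cachexia develops. All groups used here were female mice of 2 months, as labelled, and each library is labelled as a biological replicate. Both tumour groups received melanoma cells, so the comparison asks how muscle differs between a melanoma that causes cachexia and one that does not. The mouse strain is not settled, because the design text names NCI Ath/nude mice and the sample labels name C57BL6/J. The melanoma lines, the site of injection, the body weights and the tumour sizes were not given in the sources used here. All libraries carry the same treatment label, and the groups were therefore taken from the descriptions, which match the titles.

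Cachexia is the wasting of skeletal muscle, and often of fat, that accompanies many cancers. In wasting muscle, protein is broken down by the ubiquitin-proteasome and autophagy-lysosome systems, and the muscle ubiquitin ligases MuRF1 and atrogin-1 are the best known marks of this programme. Circulating interleukin-6, glucocorticoids and ligands of the activin receptors are known upstream signals. Interleukin-6 acts through gp130, JAK kinases and the transcription factor STAT3, while glucocorticoids and low insulin-like signalling act partly through FoxO factors.

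Expression was given as TPM, a transcript level corrected for transcript length and for the total of each library. Of 47643 gene symbols, 12364 reached 1 TPM in at least 5 of the 62 libraries and were tested. Differences are CAC minus NCAC on the log2(TPM + 1) scale with their standard error (SE), and a gene passed the test at a Benjamini-Hochberg adjusted p of 0.05 in a limma fit over all 62 libraries. TPM values of a library add up to a fixed sum, so a lower share of a large gene class goes with a higher share of the rest. The 13 messenger RNAs of the mitochondrial genome are such a class, and TPM alone cannot tell their fall from a rise of the others. They took 19.7, 23.3, 25.8, 25.0 and 30.7% of TPM in the CAC libraries and 32.0, 35.3, 42.3, 37.0 and 37.0% in the NCAC libraries. The groups did not overlap, with means of 24.9 ± 4.00% and 36.7 ± 3.73% (SD, n = 5), against 33.0 ± 2.47% in Con muscle. The two-sided exact permutation p was 0.00794, the smallest that 5 against 5 can give, and 0.0119 when adjusted over 3 library measures. Low TPM values times GENCODE exon length fell on steps of 1 read, and 78.5 to 79.5% of the values between 1 and 20 reads came out whole within 0.02. The depth estimated from these steps was 44.0 to 48.4 M reads in genes with a known length in each of the 10 libraries, 46.9 ± 0.89 in CAC and 45.7 ± 1.27 in NCAC (SD, n = 5). In each library 17024 to 17801 genes were above 0 TPM, with no difference past the test (17484 ± 238 in CAC and 17249.6 ± 244 in NCAC; exact permutation p = 0.151). The share in the 20 most abundant genes was also lower in CAC muscle, at 42.5 ± 4.65% against 53.1 ± 1.95% (exact permutation p = 0.00794, n = 5).

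Genes were therefore tested on 2 scales, TPM as deposited and TPM after each library was rescaled by its median ratio to the typical library. Changes, adjusted p-values and TPM levels given below with no scale named are as deposited. The median difference of all 12364 genes was 0.37 as deposited and 0.01 after rescaling, and the rescaling moved the typical gene by -0.40. As deposited, 7926 genes (64.1% of those tested) were higher in CAC muscle and 574 (4.64%) lower, 8500 in all (68.7%). After rescaling 2437 genes (19.7%) were higher and 2688 (21.7%) lower, 5125 in all (41.5%). The counts of each gene list below are to be read against these shares of all genes tested. The 2437 and the 574 genes passed in the same direction on both scales, 3011 in all (24.4%), and only these are said below to have risen or fallen. Another 341 genes were higher as deposited and lower after rescaling. Of the genes that rose, 664 differed by at least 1 log2 unit (5.37% of all tested), 79 by at least 2 (0.639%) and 18 by at least 3 (0.146%), as deposited. Of those that fell, 57 differed by at least 1 unit (0.461%) and 7 by at least 2 (0.0566%). The groups did not overlap as deposited in 4923 genes with higher CAC levels (39.8%) and 248 with lower ones (2.01%).

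**Figure D1:**
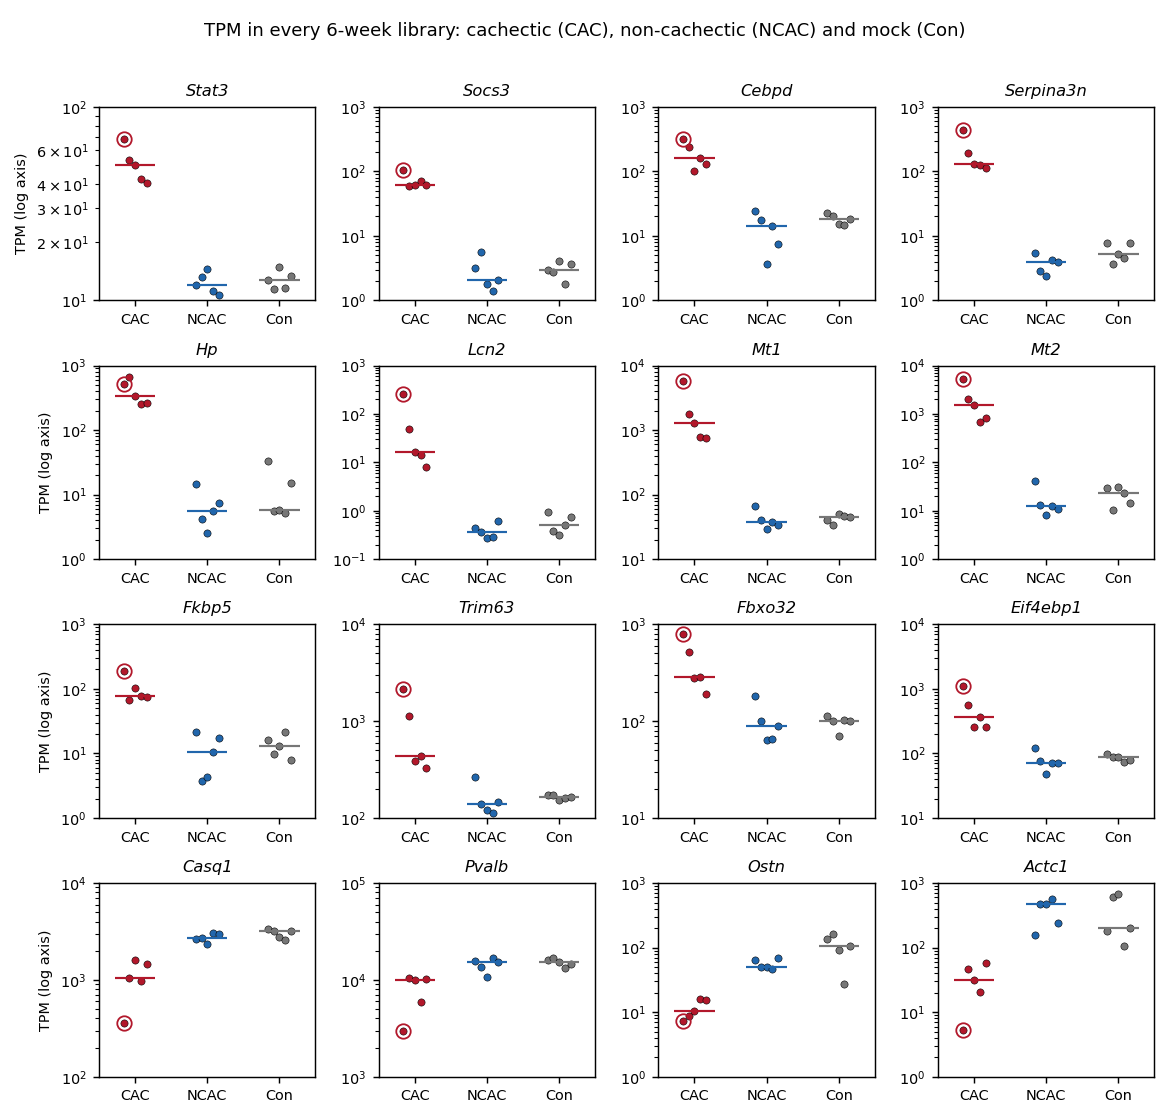
TPM of 16 genes in every 6-week library, on log axes; points are libraries, lines are group medians, and the ringed point is CAC replicate 1. In the first 12 panels all 5 CAC libraries lie above all 5 NCAC libraries, and in the last 4 (Casq1, Pvalb, Ostn, Actc1) they lie below.

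In the interleukin-6 route 3 receptor genes, Stat3 and the feedback inhibitor Socs3 rose. Among 9 receptor and kinase genes, 5 were higher as deposited and 3 after rescaling, where 1 was lower. The 3 that rose were Osmr, the oncostatin M receptor (7.63 ± 1.43 against 1.25 ± 0.31; log2 change 1.94 ± 0.19), Il6ra, the interleukin-6 receptor (14.8 ± 10.3 against 2.03 ± 0.674; 2.22 ± 0.46), and Il6st, which encodes gp130 (67.5 ± 11.01 against 34.9 ± 3.901; 0.92 ± 0.12), with the mean ± SD of CAC before that of NCAC (n = 5) and log2 changes ± SE. Their adjusted p-values were 1.23e-10, 5.65e-05 and 3.34e-08. The median of the 9 genes was 0.36 as deposited and -0.03 after rescaling, close to that of all genes on each scale.

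Stat3, the transcription factor activated by gp130, stood at 67.97, 53.2, 50.1, 42.6 and 40.6 TPM in the CAC libraries and 11.99, 13.2, 14.5, 11.2 and 10.7 TPM in the NCAC libraries. Every CAC library lay above the NCAC range, and Con libraries held 11.4 to 14.9 TPM, overlapping NCAC. Stat3 rose by 1.95 ± 0.13 (adjusted p = 7.16e-17; 1.51 after rescaling). Socs3, which blocks JAK kinases and is itself a STAT3 target, stood at 106, 59.6, 61.9, 69.8 and 61.4 TPM in the CAC libraries and 3.19, 5.64, 1.79, 1.404 and 2.05 TPM in the NCAC libraries. The groups did not overlap, and Con libraries held 1.796 to 4.11 TPM. Socs3 rose by 4.32 ± 0.42 (adjusted p = 4.50e-11; 3.92 after rescaling). Cebpd, a transcription factor of the acute phase, rose by 3.85 ± 0.57 from 13.5 to 192 TPM, and Bcl3, a nuclear partner of NF-kB, by 2.13 ± 0.25. In the list of 20 STAT factors and feedback genes, 15 were higher and none lower as deposited, while 7 were higher and 1 lower after rescaling. The list's median was 0.39 and 0.08 on these scales.

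Socs3 lies on the minus strand at chr11:117966079-117970047 (GRCm38, GENCODE vM21). The 250 bases before its RefSeq start, chr11:117969367-117969616, are shown because Socs3 moved with Stat3, with the match to the STAT half-site pair TTCNNNGAA in capitals, starting 154 bases before the start. By GENCODE the stretch overlaps the first exon of a non-coding Socs3 transcript and otherwise the intron of another.
Socs3: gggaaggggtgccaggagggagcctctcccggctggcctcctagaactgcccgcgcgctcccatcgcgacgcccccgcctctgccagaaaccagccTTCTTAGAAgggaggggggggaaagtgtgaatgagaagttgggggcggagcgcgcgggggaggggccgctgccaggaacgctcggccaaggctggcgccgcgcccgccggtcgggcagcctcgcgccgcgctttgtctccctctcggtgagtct
That pattern reads the same on both strands and occurred in 7.02% of 32851 RefSeq promoter windows of this length (GRCm38.p6). A match describes the letters alone, and no binding was measured.

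Acute phase genes, which are best known as liver products in inflammation, had the highest median change of the pathway lists on both scales. The lists were chosen with earlier results of these data known, so this rank only describes the lists as drawn up. Of 21 tested, 18 were higher and none lower as deposited, and 17 and none after rescaling, with medians of 1.61 and 1.36. Haptoglobin (Hp), which binds free haemoglobin, stood at 515, 673, 340.1, 253 and 264 TPM in the CAC libraries and 14.7, 4.27, 2.53, 5.52 and 7.33 TPM in the NCAC libraries. All CAC libraries lay above all NCAC libraries and above the Con libraries, which reached 32.7 TPM. Hp rose by 5.78 ± 0.72 (adjusted p = 1.90e-08; 5.36 after rescaling). Serpina3n, a secreted protease inhibitor, stood at 435, 195, 128, 124 and 114 TPM in the CAC libraries and 5.34, 2.87, 2.41, 4.16 and 3.88 TPM in the NCAC libraries and rose by 5.23 ± 0.56 (adjusted p = 6.18e-10). Lipocalin 2 (Lcn2), which binds bacterial iron carriers, stood at 257, 48.4, 16.3, 13.9 and 8.06 TPM in the CAC libraries and 0.448, 0.358, 0.27, 0.288 and 0.606 TPM in the NCAC libraries. CAC replicate 1 was far above the others, yet all 5 lay above NCAC, and Lcn2 rose by 4.49 ± 0.67 (adjusted p = 4.17e-07; 3.73 without CAC replicate 1). Lrg1, a secreted leucine-rich glycoprotein, rose from 19.4 to 130.2 TPM, Steap4, a metal reductase, from 14.5 to 52.1 TPM, and Il1r1, the interleukin-1 receptor, from 1.61 to 6.76 TPM. None of the 5 CAC libraries overlapped NCAC in these genes.

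Most genes of complement, the serum cascade that tags microbes and dying cells, rose as well. Of 20 tested, 17 were higher and none lower as deposited, and 15 were higher and 2 lower after rescaling, with medians of 1.55 and 1.24. C3, the central component, stood at 247, 239, 145, 116 and 185 TPM in the CAC libraries and 32.9, 21.4, 19.4, 24 and 24.9 TPM in the NCAC libraries. CAC and NCAC libraries did not overlap, and C3 rose by 2.84 ± 0.36 (adjusted p = 2.99e-08; 2.40 after rescaling). C4b rose by 3.79 ± 0.42, from 4.37 to 71.1 TPM, although its near-identical copy C4a makes the split of reads between them uncertain. The inhibitor Serping1 rose by 1.99 ± 0.25 to 199.7 TPM, and C7, a component of the membrane attack complex, by 1.90 ± 0.27 to 5.01 TPM. Markers of macrophages were higher in the same libraries. Of 13 tested, 12 were higher as deposited and 10 after rescaling, and their summed level was 291 to 494 TPM in CAC, 97.5 to 190.3 TPM in NCAC and 91.9 to 185 TPM in Con muscle. The complement and macrophage lists share 3 genes, those of the chains of C1q. The complement list also shares Cfd, which encodes adipsin, with the adipocyte list. Cfd stood at 1081, 1155, 646, 648 and 1362 TPM in the CAC libraries and 626, 209.5, 155, 262 and 210.5 TPM in the NCAC libraries and made up a large part of the summed complement level. Without it that sum was 751 to 1166 TPM in CAC, 307 to 416 TPM in NCAC and 301 to 446 TPM in Con muscle. Adipocyte markers were higher in 9 of 13 as deposited and 6 after rescaling, with 1 lower on both scales. Higher genes made up 64.1% of all tested as deposited and 19.7% after rescaling, and the deposited adipocyte count lay near that share. The part of macrophages and adipocytes in the complement and chemokine results was not tested, and in whole muscle more cells of a type and more RNA per cell cannot be told apart.

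**Figure D2:**
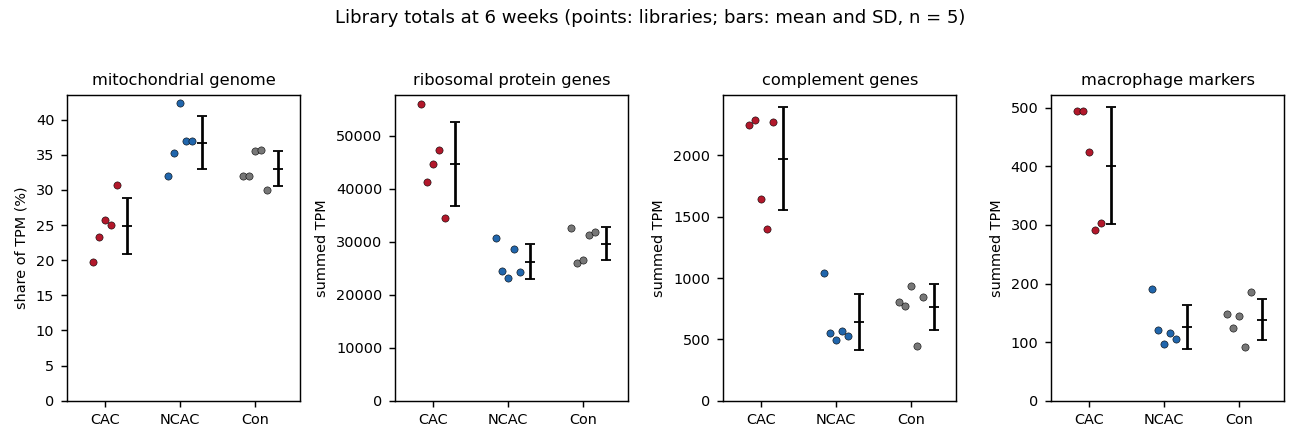
Share of TPM in the mitochondrial genome (%) and summed TPM of ribosomal protein, complement and macrophage marker genes in each 6-week library; points are libraries, bars the mean and SD (n = 5). CAC libraries lie below NCAC for the mitochondrial genome (19.7 to 30.7% against 32.0 to 42.3%) and above it in the 3 other panels.

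Among chemokines, 11 of 18 tested were higher as deposited and 8 after rescaling, where 1 was lower. Of all genes tested, 64.1% were higher as deposited, and 19.7% were higher and 21.7% lower after rescaling. Ccl8, a monocyte attractant, stood at 54.7, 103, 49.6, 27.8 and 47.6 TPM in the CAC libraries and 3.64, 2.42, 1.29, 2.22 and 2.04 TPM in the NCAC libraries and rose by 4.03 ± 0.78 (adjusted p = 2.14e-05). Cxcl13, the attractant of B cells, rose by 3.79 ± 0.56 from 0.309 to 22.5 TPM, Cxcl14 by 2.84 ± 0.32 to 225 TPM, and Ackr1, the chemokine-binding receptor of venules, by 1.96 ± 0.22 to 22.3 TPM. Wfdc17, a small secreted protein of myeloid cells, rose by 3.46 ± 0.57 to 45.4 TPM. In the NF-kB and tumour necrosis factor list, 22 of 24 were higher and 1 lower as deposited, but 9 higher and 1 lower after rescaling. The receptors Tnfrsf1a and Tnfrsf1b rose by 1.61 ± 0.16 and 1.35 ± 0.20. Of 25 interferon genes, 7 were higher as deposited and 3 after rescaling, and their medians of 0.14 and -0.12 lay below those of all genes. Immunoproteasome and MHC class I genes were higher as deposited in 7 of 10, and none passed after rescaling (H2-K1 0.76 ± 0.24, rescaled 0.32 with adjusted p = 0.266). The H2 class I genes are alike in sequence and their separate levels are uncertain.

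The metallothioneins Mt1 and Mt2, small proteins that bind zinc and copper, lie next to each other on chromosome 8 and include the largest rise among all genes tested, that of Mt2. Mt2 stood at 5281, 2043, 1514, 695 and 821 TPM in the CAC libraries and 40.4, 13.2, 8.02, 12.3 and 10.8 TPM in the NCAC libraries. Mt1 stood at 5809, 1777, 1304, 789.6 and 761 TPM in the CAC libraries and 67.7, 41.1, 29.5, 37.9 and 34.4 TPM in the NCAC libraries. All CAC libraries lay above all NCAC libraries for both genes, and CAC replicate 1 held the highest level of each. Mt2 rose by 6.68 ± 0.84 (adjusted p = 2.13e-08; 6.24 after rescaling) and Mt1 by 5.20 ± 0.65 (adjusted p = 1.96e-08). Their promoters are shown because Mt2 had that largest rise and Mt1 is its neighbour; capitals mark the core of the metal response element, TGCNCNC, on either strand, within the 250 bases before the RefSeq start. The last 7 bases of the Mt1 window are left out as they belong to an annotated transcript.
Mt2, chr8:94172368-94172617, plus strand: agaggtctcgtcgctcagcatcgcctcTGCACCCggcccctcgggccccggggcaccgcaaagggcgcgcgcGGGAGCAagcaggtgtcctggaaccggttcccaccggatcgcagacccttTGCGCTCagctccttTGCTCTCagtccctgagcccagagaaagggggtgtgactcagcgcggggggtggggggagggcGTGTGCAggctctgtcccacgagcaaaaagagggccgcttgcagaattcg
Mt1, chr8:94178839-94179081, plus strand: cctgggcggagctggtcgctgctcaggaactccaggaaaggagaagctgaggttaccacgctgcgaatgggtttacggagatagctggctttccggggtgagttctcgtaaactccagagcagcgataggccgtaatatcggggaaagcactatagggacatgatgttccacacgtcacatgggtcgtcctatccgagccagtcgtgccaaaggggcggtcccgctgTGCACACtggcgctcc
Mt2 (chr8:94172664-94173568) held 5 matches, starting 223, 178, 128, 113 and 50 bases before its RefSeq start, and Mt1 (chr8:94179082-94180327) held 1, starting 23 bases before. Bases after each RefSeq start were not searched, so neither count covers a whole promoter and the 2 counts depend on the start used. Windows with at least 1 match made up 44.4% of the 32851 promoters, and those with at least 5 made up 0.344%. Of the 20 metallothionein and zinc transporter genes tested, 16 were higher as deposited but 6 higher and 2 lower after rescaling. Slc39a14, the importer ZIP14, stood at 54.5, 6.702, 6.79, 9.23 and 7.99 TPM in the CAC libraries and 2.504, 2.34, 2.24, 1.62 and 1.83 TPM in the NCAC libraries. CAC replicate 1 lay far above the other 4 CAC libraries, which still did not overlap NCAC, and Slc39a14 rose by 2.02 ± 0.40 (1.48 without that library). Slc39a1 was higher as deposited by 0.55 ± 0.10, but its rescaled change was 0.11 with an adjusted p of 0.362.

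Most genes of the glucocorticoid response rose. Of 24 tested, 18 were higher and none lower as deposited, and 16 were higher and 1 lower after rescaling, with medians of 1.53 and 1.09. Fkbp5, the receptor co-chaperone often used as a readout of glucocorticoid exposure, stood at 191, 67.5, 102, 76.9 and 73.9 TPM in the CAC libraries and 21.5, 3.79, 4.28, 10.6 and 17.1 TPM in the NCAC libraries. The groups did not overlap, and Fkbp5 rose by 3.20 ± 0.67 (adjusted p = 5.93e-05; 2.77 after rescaling). Ddit4, an mTORC1 inhibitor also called REDD1, rose by 3.56 ± 0.75 from 14.5 to 208 TPM. The kinase gene Sgk1 rose by 1.56 ± 0.27, Hsd11b1, whose enzyme regenerates active glucocorticoid, by 1.73 ± 0.23, Errfi1, an inhibitor of the EGF receptor, by 1.55 ± 0.30, and the AMP deaminase gene Ampd3 by 1.54 ± 0.29. Of the immediate early genes, 17 of 23 were higher as deposited, 14 were higher after rescaling, and none was lower on either scale. Junb, a subunit of AP-1, rose by 3.29 ± 0.35 from 8.88 to 103 TPM, Btg2, which restrains growth, by 1.47 ± 0.26, and Zfp36l1, which destabilizes messenger RNA, by 1.31 ± 0.17.

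The muscle ubiquitin ligase genes Trim63 and Fbxo32 rose, with a wide spread among CAC libraries. Trim63, which encodes MuRF1, stood at 2134, 1126, 388, 434 and 330.0 TPM in the CAC libraries and 263, 138, 121, 112 and 147 TPM in the NCAC libraries. Fbxo32, which encodes atrogin-1, stood at 798, 512, 277, 287 and 192 TPM in the CAC libraries and 179.8, 99.5, 64.4, 65.04 and 88.1 TPM in the NCAC libraries. Neither gene overlapped between the groups, but CAC replicates 1 and 2 lay well above the other 3, and the highest NCAC library was replicate 1. Trim63 rose by 2.16 ± 0.50 (adjusted p = 2.40e-04; 1.72 after rescaling, adjusted p = 0.00421). Fbxo32 rose by 1.97 ± 0.49 (adjusted p = 5.08e-04; 1.52 after rescaling, adjusted p = 0.00855). Of 24 atrophy ligases, 18 were higher and 2 lower as deposited, and 8 were higher and 6 lower after rescaling. Fbxo31 rose by 1.60 ± 0.27 to 221 TPM and Trim72, a membrane repair protein, by 1.16 ± 0.11 to 365 TPM. Trim55, which encodes the related MuRF2, fell by 0.37 on the log2 scale, from 48.7 to 37.5 TPM, and Fbxl22, a sarcomere F-box gene, fell by 0.79.

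FoxO factors did not move together. Foxo3 rose by 1.04 ± 0.22 from 9.63 to 21.1 TPM, and Foxo6 fell by 1.36 from 6.51 to 2 TPM. Foxo1 stood at 43.2, 11.4, 10.3, 10.5 and 16.8 TPM in the CAC libraries and 5.62, 4.75, 5.75, 5.39 and 8.33 TPM in the NCAC libraries, was 1.27 ± 0.40 higher as deposited (adjusted p = 0.0047) and did not pass after rescaling (0.86, adjusted p = 0.0629). Eif4ebp1, a brake on translation and a FoxO target, rose by 2.53 ± 0.37 from 77.5 to 509 TPM. Over the 16 FoxO factors and targets, 9 were higher and 1 lower as deposited, and 6 and 2 after rescaling, which became 3 and 2 without CAC replicate 1. Cdkn1a, the cell cycle inhibitor p21, rose by 2.06 ± 0.46 from 11.9 to 59.8 TPM. Of 22 growth arrest genes, 19 were higher as deposited, and 7 were higher and 1 lower after rescaling.

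Counts for the degradation machinery differed widely between the 2 scales. Of all genes tested, 64.1% were higher and 4.64% lower as deposited, and 19.7% were higher and 21.7% lower after rescaling. As deposited, 41 of 45 proteasome genes were higher and none lower, but after rescaling 8 were higher and 6 lower, and without CAC replicate 1 the rescaled counts were 3 and 7. Psmd4, a ubiquitin receptor of the proteasome, rose by 1.17 ± 0.17 (206 ± 85.2 against 86.3 ± 10.1 TPM; 0.72 after rescaling), and Psmb3 by 0.68 ± 0.10, although its rescaled change of 0.24 became 0.12 without CAC replicate 1 and did not pass (adjusted p = 0.319). Psma3, a core subunit, was 0.58 ± 0.083 higher as deposited with 0.14 after rescaling (adjusted p = 0.123). Of 41 autophagy genes, 31 were higher and 1 lower as deposited, and 9 and 7 after rescaling, or 3 and 7 without CAC replicate 1. Map1lc3b, which coats autophagosomes, rose by 1.41 ± 0.21 from 75.2 to 216 TPM, and the receptor gene Optn by 0.90 ± 0.15. Lysosomal genes were higher in 36 of 42 as deposited and in 16 after rescaling, where 4 were lower. Lamp1, the main lysosomal membrane protein, rose by 0.65 ± 0.10 (0.20 after rescaling, and 0.14 with adjusted p = 0.142 when CAC replicate 1 was also left out).

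**Figure D3:**
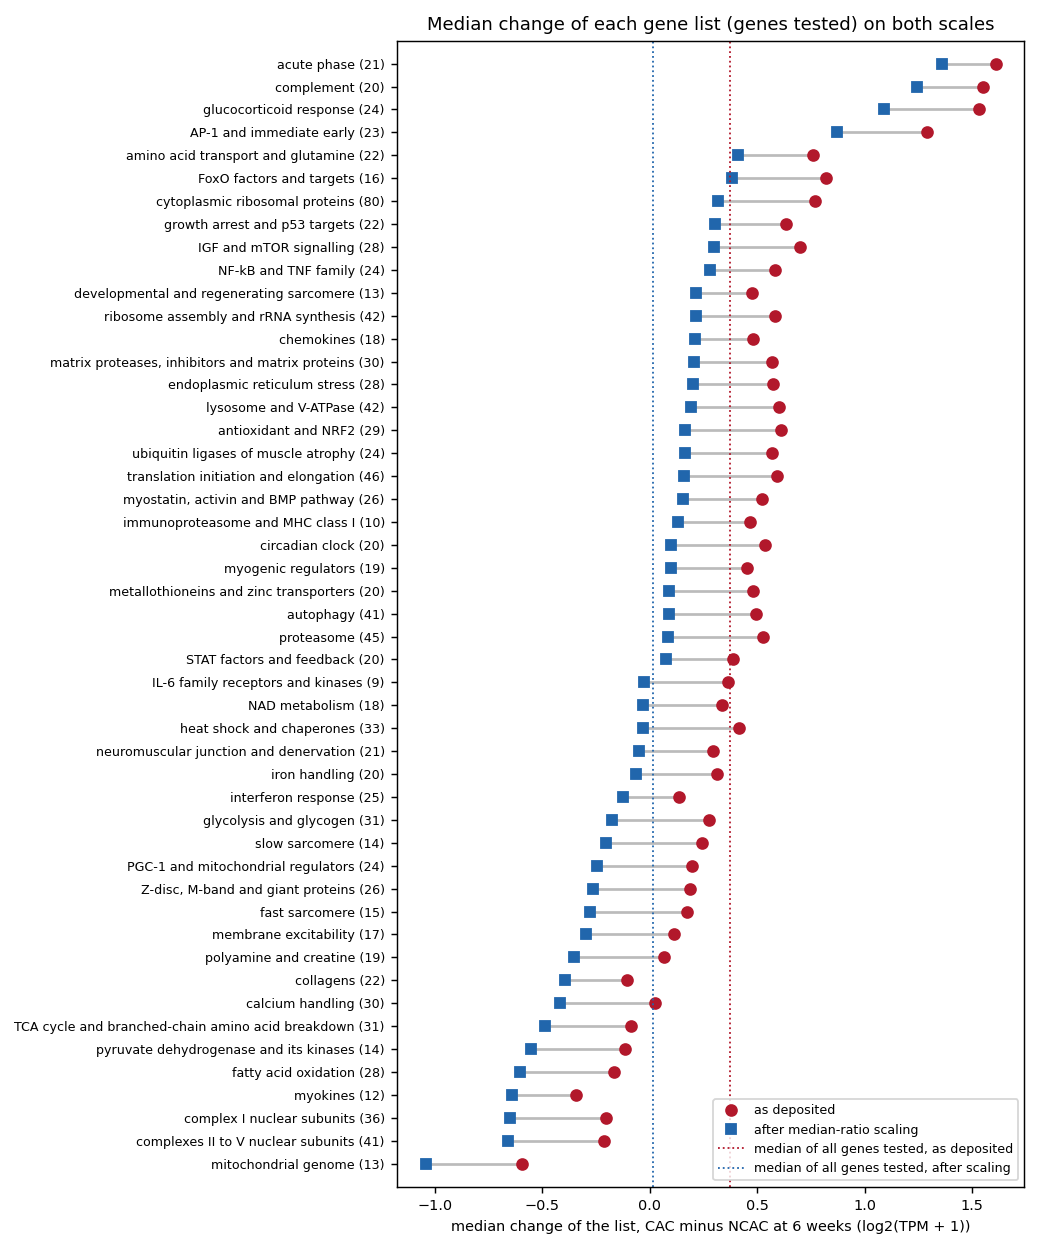
Median change of each pathway list (number of genes tested in brackets), CAC minus NCAC on the log2(TPM + 1) scale, as deposited (circles) and after median-ratio scaling (squares); dotted lines are the medians of all 12364 genes, 0.37 and 0.01. Acute phase, complement and glucocorticoid lists lie farthest to the right on both scales, and the mitochondrial genome farthest to the left. The lists were chosen with earlier results of these data known.

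Genes of the cytoplasmic ribosome rose broadly on both scales. Of 80 ribosomal protein genes tested, 78 were higher and none lower as deposited, and 61 were higher and 1 lower after rescaling, with medians of 0.77 and 0.32. Their summed level was 34454 to 55978 TPM in CAC and 23190.4 to 30665 TPM in NCAC libraries, without overlap. Rpl4 rose by 0.96 ± 0.13, Rps27 by 1.27 ± 0.16, Rpl6 by 0.86 ± 0.11 and Rpl8 by 0.80 ± 0.10. Processed copies of these genes are many, so reads may be shared between them. Myc, which drives ribosome production, rose by 1.63 ± 0.26 from 2.34 to 9.35 TPM, and Polr1c, a polymerase I subunit, by 0.74 ± 0.12. Ribosome assembly genes passed in 39 of 42 as deposited, but after rescaling 18 were higher and 6 lower, or 7 and 5 without CAC replicate 1. Translation factors passed in 44 of 46 as deposited and after rescaling 16 were higher and 2 lower, or 10 and 3 without that library. Eef2, the translocase of elongation, rose by 1.11 ± 0.15 from 1024 to 2209 TPM and Eif3e by 0.88 ± 0.12. Asns, which makes asparagine, rose by 1.44 ± 0.23, Atf4, the factor of the integrated stress response, by 0.98 ± 0.18, and Slc3a2, the shared subunit of large amino acid transporters, by 1.201 ± 0.14. Amino acid transporters passed in 17 of 22 as deposited and in 11 after rescaling, where 3 were lower.

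Mitochondrial transcripts fell from both genomes. All 13 genes of the mitochondrial genome were lower on both scales, with medians of -0.59 and -1.04, and in 8 of them the groups did not overlap. The cytochrome oxidase gene mt-Co1 stood at 41062, 48695, 52709, 56869 and 62798 TPM in the CAC libraries and 66391, 72639, 84089, 73170.2 and 74757 TPM in the NCAC libraries. The highest CAC library lay below the lowest NCAC library, and mt-Co1 fell by 0.51 (adjusted p = 6.29e-06; -0.96 after rescaling). The complex I gene mt-Nd3 fell by 0.96, from 10849.5 to 5579 TPM. Of 36 nuclear complex I subunits, 23 were lower and 2 higher as deposited, and 34 were lower and none higher after rescaling. Ndufs1 fell by 0.68 from 213 to 133 TPM, whereas Ndufa7 was 0.40 ± 0.086 higher as deposited and -0.041 after rescaling (adjusted p = 0.723). Of 41 nuclear subunits of complexes II to V, 28 were lower and 2 higher as deposited, and 38 lower after rescaling. Cox7a1, the muscle and heart form of a cytochrome oxidase subunit, fell by 0.85 and Uqcrc2 of complex III by 0.38.

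Enzymes of mitochondrial metabolism were lower more often than higher. In the list of the TCA cycle and branched-chain amino acid breakdown, 10 of 31 were lower and 1 higher as deposited, and 25 lower after rescaling. Citrate synthase (Cs) fell by 0.23, from 621 to 531 TPM, and Mdh2, the mitochondrial malate dehydrogenase, by 0.39. Fatty acid oxidation genes were lower in 10 and higher in 4 of 28 as deposited and lower in 21 after rescaling. Acads, the short-chain acyl-CoA dehydrogenase, fell by 0.53 and Hadhb, a subunit of the trifunctional protein, by 0.49. Dlat and Pdhb, subunits of pyruvate dehydrogenase, fell by 0.52 and 0.35. Pdk4, the kinase that shuts this complex in fasting, stood at 991, 731, 287, 672 and 606 TPM in the CAC libraries and 540.1, 349, 293, 237 and 261 TPM in the NCAC libraries. The groups overlapped and Pdk4 did not pass (0.92 ± 0.51, adjusted p = 0.1; 0.48 after rescaling). It passed in a fit of only the 2 groups (adjusted p = 0.0177) and without CAC replicate 3 (1.196, adjusted p = 0.0438). Ppargc1a, the coactivator PGC-1alpha, also overlapped and did not pass (15.2 ± 9.66 against 9.07 ± 2.02 TPM; 0.54 ± 0.29, adjusted p = 0.0986), but passed without CAC replicate 2 (0.72, adjusted p = 0.0342). Sod2, the mitochondrial superoxide dismutase, fell by 0.47, while the secreted peroxidase gene Gpx3 rose by 1.61 ± 0.27 and the cytosolic Sod1 by 0.81 ± 0.13. The rescaled call of Sod1 did not hold without CAC replicate 1 (0.29, adjusted p = 0.0722).

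Glycolysis and glycogen genes split. As deposited 15 of 31 were higher and 5 lower, and after rescaling 7 and 13, and without CAC replicate 1 the deposited counts were 15 and 2. Among all genes tested 64.1% were higher and 4.64% lower as deposited, and 19.7% and 21.7% after rescaling. The isomerase gene Gpi1 rose by 0.85 ± 0.13, the glycogen primer gene Gyg by 0.93 ± 0.14 and Hk1, a hexokinase scarce in mature muscle, by 0.63 ± 0.11 to 3.93 TPM. Pgam2, the muscle phosphoglycerate mutase, fell by 0.70 from 4469 to 2804 TPM, and Pgm2 by 0.77. Ckmt2, the mitochondrial creatine kinase of muscle, fell by 0.88, and Sat1, which acetylates polyamines for export, rose by 1.45 ± 0.26.

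Contractile gene lists held more higher than lower genes as deposited, and more lower than higher genes after rescaling. The same was true of all genes tested, with 64.1% higher and 4.64% lower as deposited, and 19.7% and 21.7% after rescaling. Of 15 fast sarcomere genes, 7 were higher and 3 lower as deposited, and 1 higher and 7 lower after rescaling. For 26 Z-disc, M-band and giant protein genes these counts were 11 and 2, and 3 and 10. They were 3 and 0, and 0 and 2, for 14 slow sarcomere genes. For 13 developmental and regenerating sarcomere genes they were 6 and 2, and 2 and 3. Myh4, the fast IIb myosin heavy chain, stood at 10566, 16013, 14802, 13116 and 14223 TPM in the CAC libraries and 11728, 11206, 9079, 11007 and 12367 TPM in the NCAC libraries. The groups overlapped, and Myh4 was 0.30 ± 0.13 as deposited (adjusted p = 0.0352) and -0.14 after rescaling (adjusted p = 0.462), and its deposited call was lost when any of CAC replicates 2, 3 or 5 or NCAC replicates 3 or 4 was left out. The light chain genes Mylpf and Myl1 fell by 0.62 and 0.72, while Mylk2, the kinase that phosphorylates the regulatory light chain, rose by 1.24 ± 0.22. Desmin (Des), the intermediate filament around the Z-disc, rose by 1.52 ± 0.17 from 1331 to 3829 TPM, and filamin C (Flnc) by 1.22 ± 0.21. Myoz3, the fast-fibre calsarcin, fell by 1.53 from 140.5 to 55.4 TPM.

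Actc1, the cardiac alpha-actin that skeletal muscle expresses in development, gave the largest fall. It stood at 5.24, 47.4, 31.1, 20.7 and 57.9 TPM in the CAC libraries and 156, 478, 478, 572 and 243 TPM in the NCAC libraries. All CAC libraries lay below all NCAC libraries, with CAC replicate 1 lowest, and Con libraries held 105 to 679.9 TPM. Actc1 fell by 3.73 (SE 0.66, adjusted p = 5.38e-06; -4.15 after rescaling). Its coding sequence resembles that of the far more abundant Acta1, so the split of reads between them is uncertain. Mybph, a myosin-binding protein, fell by 2.03, but its groups overlapped, and leaving out CAC replicate 1 removed the call (-1.41, adjusted p = 0.066). Csrp3, the muscle LIM protein, was 1.44 ± 0.46 higher as deposited (168, 140.0, 96.8, 981 and 71.3 TPM in the CAC libraries and 71, 62.96, 63.05, 61.9 and 60.2 TPM in the NCAC libraries). CAC replicate 4 lay far above the others, and the call was lost without it (0.82, adjusted p = 0.08) and after rescaling (adjusted p = 0.0688).

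Calcium handling leaned down once the libraries were rescaled. As deposited 8 of 30 genes were higher and 7 lower (4 lower without CAC replicate 1), and after rescaling 1 was higher and 20 lower. Casq1, the calcium store protein of fast fibres, stood at 356, 1054, 1606, 980.1 and 1473 TPM in the CAC libraries and 2647, 2697, 2338, 3021 and 3008 TPM in the NCAC libraries. Pvalb, the calcium buffer parvalbumin, stood at 2974, 10427, 9948, 5961 and 10187 TPM in the CAC libraries and 15558, 13728, 10769, 16845 and 15275 TPM in the NCAC libraries. Both groups were apart for both genes, with CAC replicate 1 lowest. Casq1 fell by 1.49 (adjusted p = 3.89e-04; -1.94 after rescaling) and Pvalb by 1.00 (adjusted p = 4.59e-04; -1.44 after rescaling). Sarcolipin (Sln), the peptide that uncouples the calcium pump, rose by 2.68 ± 0.48 from 10.03 to 84.7 TPM. The pump gene itself, Atp2a1, was 0.63 ± 0.11 higher as deposited and 0.18 after rescaling (adjusted p = 0.194).

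Genes of the neuromuscular junction went both ways after rescaling, as did all genes tested. For comparison, 64.1% of all genes tested were higher and 4.64% lower as deposited, and 19.7% and 21.7% after rescaling. Of 21 tested, 10 were higher and 1 lower as deposited, and 4 higher and 5 lower after rescaling, or 2 and 1 without CAC replicate 1. Chrna1, the acetylcholine receptor subunit that denervation raises, stood at 31.97, 36.4, 19.9, 20.4 and 21.9 TPM in the CAC libraries and 8.53, 8.695, 9.298, 8.49 and 8.89 TPM in the NCAC libraries. CAC and NCAC libraries did not overlap, and Chrna1 rose by 1.43 ± 0.28 (adjusted p = 2.87e-05; 1.01 after rescaling). Gadd45a rose by 1.44 ± 0.35 (after rescaling and without CAC replicate 1, 0.78 with adjusted p = 0.0811) and Runx1 by 0.79 ± 0.14, the latter only to 1.2 TPM. Among myogenic regulators Myf6, the factor of mature fibres, rose by 1.14 ± 0.21 and Cdh15, a cadherin of satellite cells, by 1.23 ± 0.19. Of the 19 regulators, 13 were higher as deposited, and 3 were higher and 3 lower after rescaling, near the shares of all genes tested.

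Growth factor genes changed at several steps. Igf1 stood at 6.33, 6.02, 6.39, 4.49 and 6.24 TPM in the CAC libraries and 2, 2.48, 2.83, 1.24 and 1.897 TPM in the NCAC libraries. Every CAC library lay above the NCAC range, and Igf1 rose by 1.17 ± 0.21 (adjusted p = 5.09e-06). The binding protein genes Igfbp4 and Igfbp7 rose by 1.83 ± 0.26 and 1.38 ± 0.19, and Akt1 by 1.28 ± 0.20. In all, 22 of 28 IGF and mTOR genes were higher as deposited, and 14 were higher and 4 lower after rescaling. Myostatin (Mstn), the muscle growth inhibitor, overlapped between the groups and did not pass (38.8 ± 7.09 against 29.2 ± 2.54 TPM; 0.38 ± 0.21, adjusted p = 0.099; -0.057 after rescaling). It passed as deposited in a fit of only the 2 groups (adjusted p = 0.0294) and without CAC replicate 4 (0.51, adjusted p = 0.0355). Its relative Gdf11 fell by 0.95 to 1.12 TPM, while Nog, a BMP antagonist, rose by 1.88 ± 0.27 from 5.88 to 24.8 TPM and Tgfbr2 by 1.34 ± 0.19.

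Several secreted muscle factors fell. Ostn, which encodes musclin, a peptide of exercised muscle, stood at 7.195, 8.87, 10.4, 16.3 and 15.3 TPM in the CAC libraries and 64.7, 49.7, 50.1, 46.3 and 68.2 TPM in the NCAC libraries. The groups did not overlap, and Con libraries held 27.2 to 160.3 TPM. Ostn fell by 2.21 (adjusted p = 2.50e-05). Metrn fell by 1.06 and Il15 by 0.84. Of 12 myokine genes tested, 5 were lower and 2 higher as deposited, and 9 and 1 after rescaling, with medians of -0.34 and -0.64. Fam132b, the iron hormone erythroferrone, rose by 1.48 ± 0.36 from 0.655 to 3.85 TPM. In the iron list Tfrc, the transferrin receptor, fell by 1.55 from 35.98 to 13.04 TPM and Ftl1, the ferritin light chain, rose by 1.14 ± 0.16, although Tfrc and Fam132b levels overlapped between the groups.

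Clock, NAD and matrix genes supplied other large changes. Dbp, a clock output factor, fell by 1.78 from 146 to 56.2 TPM and Bhlhe41 by 0.99, while Nfil3, which opposes Dbp at shared sites, rose by 2.54 ± 0.53. The hour of dissection is not given in the sources used here. Of 20 clock genes, 11 were higher and 2 lower as deposited and 3 higher and 4 lower after rescaling. The shares of all genes tested were 64.1% and 4.64% as deposited, and 19.7% and 21.7% after rescaling. Nmrk2, the nicotinamide riboside kinase of muscle, fell by 2.06 (adjusted p = 0.0135), which was lost without CAC replicate 1 (-1.70, adjusted p = 0.0558), and Nnmt, which methylates nicotinamide, rose by 1.503 ± 0.31. Lox, which crosslinks collagen, rose by 2.36 ± 0.36 from 2.77 to 18.8 TPM, and the proteases Mmp14 and Mmp3 by 1.71 ± 0.26 and 2.49 ± 0.50. Collagens did not follow: 6 of 22 were higher and 2 lower as deposited, and none higher and 4 lower after rescaling. Chad and Cilp2, matrix proteins of tendon and cartilage, fell by 2.70 and 1.83, and the tendon markers were higher in 1 and lower in 4 of 9 as deposited, Chad and Cilp2 among them. The summed tendon markers overlapped, at 137 to 282 TPM in CAC and 142 to 273 TPM in NCAC muscle. How much tendon each sample held was not tested. Other large falls among genes whose groups did not overlap were those of Dupd1, a muscle dual-specificity phosphatase (1.63), Rsph1, a cilium component (1.53), Nrep (2.46) and Lrtm1 (1.60), each given as a fall on the log2 scale.

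The labelled tissue showed in its fibre genes, whose 10 markers summed to 138637 to 193278 TPM in CAC and 126085 to 173984 TPM in NCAC libraries. Of 10 melanocyte markers, 7 were under 1 TPM in each of the 10 libraries, among them Pmel, Mlana, Dct, Tyrp1 and Tyr, which was at 0 TPM in all. The other 3 were Mitf, at 4.24 to 6.17 TPM in CAC and 3.04 to 5.13 TPM in NCAC muscle, and Sox10 and S100b, which are also in the Schwann cell list and did not pass on either scale, although Sox10 passed as deposited when CAC replicate 1 or 3 or NCAC replicate 1 or 3 was left out (0.62 to 0.72). Mitf was higher as deposited, a call that was lost when CAC replicate 1 or 3 or NCAC replicate 4 was left out, and did not pass after rescaling (-0.04, adjusted p = 0.784). Sox10 and S100b reached 5.63 and 4.99 TPM in CAC and 2.97 and 5.94 TPM in NCAC muscle. T and natural killer cell markers were near 0 as well, with none of 13 reaching 1 TPM in any of the 10. Ighm, the heavy chain of immunoglobulin M, stood at 6.62, 18.1, 15.2, 8.62 and 56.4 TPM in the CAC libraries and 126, 73.4, 80.1, 83.7 and 111 TPM in the NCAC libraries. All CAC libraries lay below NCAC, but Con libraries ran from 21.3 to 143 TPM, and Ighm fell by 2.49 (adjusted p = 4.01e-05). Of the other 9 B and plasma cell markers, 7 stayed under 1 TPM in each of the 10 libraries. Igkc, the kappa light chain, reached 3.27 TPM in CAC and 2.86 TPM in NCAC muscle, and Mzb1 reached 1.48 and 0.819 TPM. Neither passed on either scale. Satellite cell markers were higher in 7 of 8 as deposited and 4 after rescaling, and endothelial markers in 12 and 6 of 14 (1 lower after rescaling). The shares of these cells were not measured.

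CAC libraries differed in how far they stood from NCAC. In a principal component analysis of the 10 libraries the first component held 65.5% of the variance, and CAC scores were 60.5, 30.8, 20.6, 35.8 and 17.5 for replicates 1 to 5 against -22.3 to -44.8 in NCAC. CAC replicate 1 was the highest CAC library in 62.1% of the 2437 genes that rose and the lowest in 59.1% of the 574 that fell. Replicate 5 was nearest to NCAC in 39.7% of the former, and replicate 3 in 37.3% of the latter. CAC replicate 1 also had the smallest mitochondrial share, 19.7%, and replicate 5 the largest of the group, 30.7%. Without replicate 1, 7283 genes were higher and 434 lower as deposited, and 1853 and 2258 after rescaling.

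The NCAC group was also set against mock muscle at 6 weeks, and no gene passed by limma (0 of 12364, 0.0%), with 909 genes at an unadjusted p under 0.05 (7.35%), 1 gene called after rescaling (0.00809%) and none with array weights. Stat3 differed by -0.053 (NCAC minus Con, log2), Socs3 by -0.16, Mt2 by -0.46, Trim63 by -0.15 and Actc1 by 0.33, with SEs of 0.13, 0.42, 0.84, 0.50 and 0.66. The same NCAC libraries enter the CAC comparison, so the values stand side by side only.

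**Figure D4:**
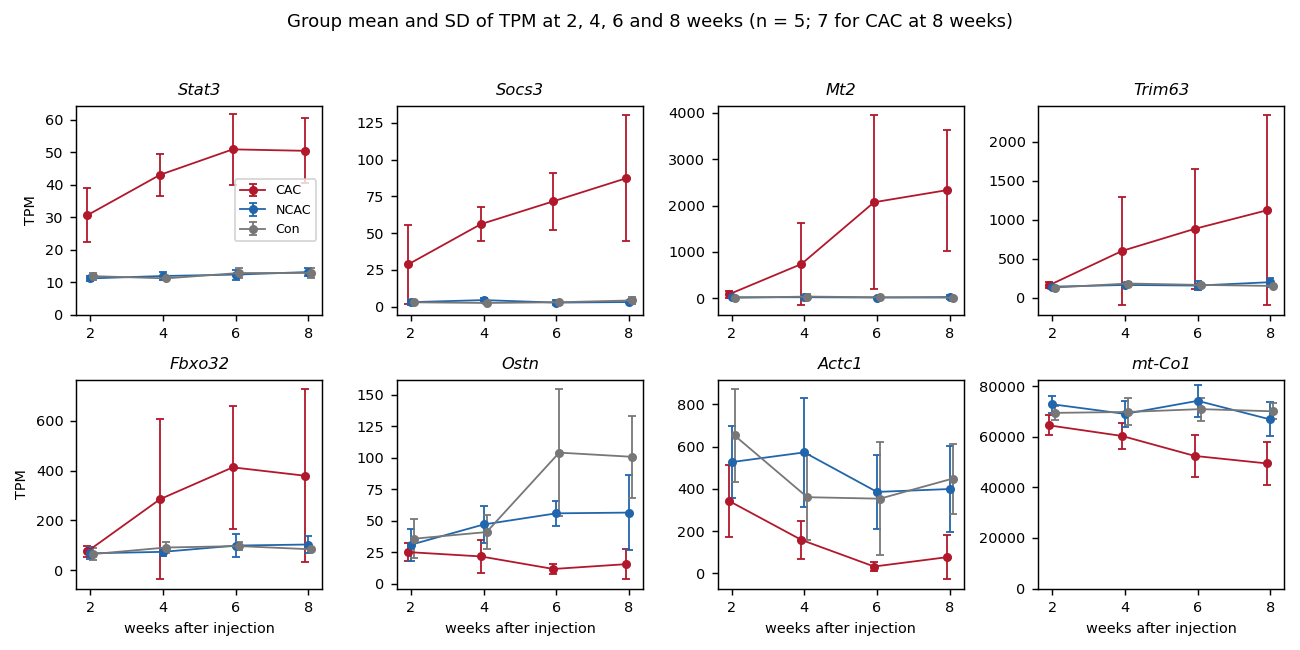
Mean and SD of TPM for 8 genes at 2, 4, 6 and 8 weeks in CAC, NCAC and Con muscle (n = 5, and 7 for CAC at 8 weeks). Stat3, Socs3, Mt2, Trim63 and Fbxo32 means stand higher and Ostn, Actc1 and mt-Co1 means lower in CAC than in NCAC at 6 weeks, with wide CAC bars for Mt2, Trim63 and Fbxo32.

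The CAC-NCAC difference was then set against that of the neighbouring weeks, which used other mice. Stat3 means in CAC muscle were 30.6 TPM at 2 weeks, 43.1 at 4, 50.9 at 6 and 50.4 at 8 weeks, against 11.2, 11.9, 12.3 and 13.1 TPM in NCAC muscle. Mt2 means in CAC muscle were 84.8, 739, 2071 and 2331 TPM at the same weeks. Trim63 means were 162, 599.9, 882 and 1121 TPM. From 4 to 6 weeks the difference grew by 2.72 log2 units for Mt2 (SE 1.19, adjusted p = 0.174) and by 0.89 for Trim63 (SE 0.71, adjusted p = 0.426), neither passing. Abca7, a lipid transporter, was the 1 gene of 12364 that passed (0.00809%). It stood at 5.61 against 5.39 TPM at 4 weeks and at 8.32 ± 0.978 against 4.66 ± 0.508 TPM at 6 weeks, a growth of 0.67 ± 0.12 (SE, adjusted p = 0.00765) that did not pass after rescaling (0.46, adjusted p = 0.185). At an unadjusted p under 0.05 there were 2857 such genes (23.1%), and the count of passing genes became 2242 without CAC replicate 2 of week 4, 400 without CAC replicate 5 of week 6 and 1444 with array weights. After rescaling 0 genes passed, and 1633 were at an unadjusted p under 0.05 by limma. The counts between these weeks therefore depended on single libraries and on the scale. Between 6 and 8 weeks no gene passed by limma, with 473 at an unadjusted p under 0.05 (3.83%), 1 gene passing without CAC replicate 2 of week 8 and none with array weights. Mt2 differed there by -0.28 (SE 1.15) and Stat3 by -0.10 (SE 0.18).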

How the data were processed

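RNA from gastrocnemius muscle was sequenced from TruSeq stranded mRNA libraries on a NovaSeq 6000, per the labels' protocols. A phrase in that protocol refers to LLC cells, while the sample descriptions name melanoma cells. The authors deposited 1 table of TPM for all 62 libraries, with mm10 named as the genome build per the submitters' processing notes, and the aligner, counter, annotation and use of strand were not given in the sources used here. Overlapping and antisense genes may therefore share reads. No 2 columns were identical. Depth was estimated per library as the step of TPM times GENCODE vM21 exon length that made most low values whole.

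TPM was transformed to log2(TPM + 1) and genes of at least 1 TPM in at least 5 of 62 libraries were kept (11474 if only the 10 compared are used). One limma model (version 3.58.1, R 4.3.3, trend in the prior variance) held the 12 groups of treatment and week, so that all libraries share 1 estimate of spread, and p-values were adjusted by Benjamini-Hochberg over 12364 genes. Median-ratio scaling divided each library by its median ratio to the gene-wise geometric mean. Exact permutation tests were two-sided over 252 splits. On simulated data for this comparison with 12364 genes, 68.7% of 1.5-fold, 88.9% of 2-fold and 98.4% of 4-fold changes were called, and 7 unchanged genes. The simulated noise was independent and normal, and no shift shared by most genes was put in. The simulation therefore gives no error rate for the real comparison.

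The members, gene lists and named genes were chosen with earlier results of these data known. Named genes were 24 preselected genes, the 12 largest rises and falls with groups that do not overlap, up to 4 members of each list with the lowest p and up to 2 called against its majority, and the 8 lowest p of each comparison of weeks. The rule gave 260 genes, of which the text describes 139, and 6 other tested genes (Cfd, Igkc, Mitf, Mzb1, S100b and Sox10) were named as list members after their values were seen. Alternatives were another pseudocount, other filters, median-ratio scaling, mitochondrial genes left out, array weights, a replicate block, only the groups compared and each library left out. Promoters come from RefSeq (GRCm38.p6), where 9280 of the tested genes had one.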

Additional observations from a re-analysis of the deposited data

Results flagged for a closer look

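In 14 of 296 values checked (145 genes and 3 library measures in each of the CAC and NCAC groups of 5), 1 library stood apart from the rest of its group. That means its gap to the next library took up more than 0.71 of the group's range on the log2(TPM + 1) scale, Dixon's limit for 5 samples, which chance passes in about 1 of 20 groups. In CAC muscle replicate 1 was the high one for Slc39a14 (gap 0.856 of the range), Il6ra (0.802) and Socs3 (0.726). Replicate 4 was the low one for Mstn (0.868) and Igf1 (0.827), and replicate 5 for Btg2 (0.841). In NCAC muscle replicate 1 was high for Flnc (0.776), Nnmt (0.769), Csrp3 (0.718) and Trim72 (0.715) and low for Lrtm1 (0.839). Replicate 3 was low for Gadd45a (0.839) and high for Ppargc1a (0.806), and replicate 2 was high for Pdhb (0.732). The CAC-NCAC difference of Abca7 was 0.67 log2 units larger at 6 than at 4 weeks by a test of that difference in limma, as given above.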

How the results depend on the processing

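The count of called genes depended most on scaling. It was 8500 as deposited, 5125 after median-ratio scaling, 3942 with that scaling and only the 2 groups compared, and 4111 with it and without CAC replicate 1. The last 2 were chosen after seeing the data. Leaving out the 13 mitochondrial genes gave 4500 higher and 1276 lower genes, a split of 77.9% higher against 93.2% as deposited, and it was 47.6% after median-ratio scaling. Leaving out 1 library at a time gave 7717 to 8526 genes. Under the pseudocount of 0.1, no filter, the filter at 5 TPM, array weights and only the groups compared, the count stayed within 1.5 times.

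Replicate numbers did not pair the samples: deviations of same-numbered CAC and NCAC libraries correlated at 0.14, -0.05, 0.02, -0.14 and -0.05, and 1 of 5 matched its own number best. The fit with a replicate block gave 8585 called genes, and it changed no call of the 145 genes tested and named in the text but that of Sox10, which passed under it.

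Of these 145 genes, 138 were called as deposited, 133 kept their call whichever library was left out, and after median-ratio scaling 6 lost it in the same direction. Signs reversed after that scaling, alone or with only the 2 groups, for Mitf (-0.0396), Mstn (-0.057), Myh4 (-0.14) and Ndufa7 (-0.041). Without CAC replicate 1 as well, these stood at -0.064, -0.035, -0.0075 and -0.093, Mzb1 at -0.027 and Ppargc1a at -0.12. S100b ranged from -0.27 to 0.13 with 1 library left out. With that scaling and only the 2 groups, Lamp1 (adjusted p = 0.175 by limma), Psmb3 (0.257), Rpl8 (0.0529) and Sod1 (0.0743) also lost their rescaled call. The cause was not tested.

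NCAC against Con gave 1 gene after median-ratio scaling instead of 0. For 6 against 4 weeks the count was 0 after median-ratio scaling, with mitochondrial genes left out or with only the groups compared, 1444 with array weights, and between 1 and 2242 with 1 library left out. For 8 against 6 weeks it was 0 or 1 with 1 library left out. Counting genes of at least 1 TPM gave 666 more per CAC library (exact permutation p = 0.00794), where genes above 0 TPM did not pass. At the estimated depth 1 TPM stood for 16.4 to 21.2 reads per kilobase of transcript in the 10 libraries, which limits the precision of genes near 1 TPM.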
